A study of Mus musculus with 248 samples.

Results

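Genes of the mitochondrial ribosome and of the machinery that brings proteins into mitochondria were followed in single hematopoietic stem cells (HSCs) of mice, sorted by the voltage across the inner mitochondrial membrane. Members were found by symbol: every gene whose name starts with Mrpl or Mrps, or with Timm or Tomm and a digit, plus Ptcd3, that appears in any of 3 deposited gene tables. The tables were the comparison of the cells of high and low mitochondrial membrane potential (MMP), the genes that mark clusters A to E, and the highly variable genes. The rule found 39 members among 7272 genes named in these tables, of which 29 belong to the mitochondrial ribosome and 10 to protein import. The tables name only selected genes. The mouse annotation (GENCODE M21, build GRCm38) holds 79 protein-coding genes of the ribosome and 25 of import that match the rule, and 51 and 15 of these were in none of the tables, so that no value was given for them.

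The cells were sorted from C57Bl6 mice by a surface profile of long-term HSCs (Lin-Sca1+cKit+CD150+CD48-) and then as MMP-high or MMP-low. Each library held the RNA of 1 cell, and there were 126 MMP-high and 122 MMP-low libraries. All cells share strain and surface sort, and no age, treatment or mutation is named. The labels name no animal or sorting day behind a cell, so each MMP group counts as 1 sample and no replicate check of a difference could be made.

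The mitochondrial ribosome makes the few proteins encoded in mitochondrial DNA, which are subunits of the respiratory chain and of ATP synthase. Its own proteins are encoded in the nucleus, made in the cytosol and imported. Import starts at the TOM complex of the outer membrane. Proteins with a cleavable presequence then pass the TIM23 complex of the inner membrane, while carrier proteins are inserted by the TIM22 complex. HSCs hold their mitochondria at low activity for much of life and rely more on them when they enter the cycle.

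The median number of genes detected was 3795.5 in MMP-high libraries against 2316.5 in MMP-low libraries, which are 23.4% and 14.3% of the 16203 genes tested. Libraries numbered up to 85 in their titles held 4080 genes in MMP-high and 2500 in MMP-low by the median, and above 85 the order turned, at 1905 genes in MMP-high and 2083 in MMP-low. Other quality values moved with the groups as well. The median share of reads in introns was 34.2% in MMP-high libraries against 42.7% in MMP-low libraries (21.1% and 37.5% up to 85, 45.5% and 46.1% above), and the expression profiling efficiency of the quality table was 31.3% and 18.3% (58.5% and 24.5% up to 85, 13.7% and 14.6% above). The median of mapped reads was 568088.5 for MMP-high libraries against 508337.5 for MMP-low libraries (1035705 and 472174 up to 85, 454512 and 564476 above). How much these moved the detection of single members was not tested. Detection shares given below, such as 78.2% of MMP-high cells and 12.4% of MMP-low cells, are no whole numbers of 126 and 122 cells. The authors' gene tables thus did not use every library of the quality table, and which they used is not stated. Of 10 marker genes of HSCs, the authors' deposited table put 1 on the MMP-high side and 5 on the MMP-low side. That table listed 5.67% and 5.86% of all tested genes on these sides. Markers of other cells were listed on the MMP-low side alone in that table: 8 of 10 of granulocytes, 5 of 7 of B cells and 3 of 8 of erythroid cells. Their part in the values below was not tested.

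Most listed members were on the side of the MMP-high cells. By the authors' deposited table, 19 of the 21 listed members stood on the MMP-high side and 2 on the MMP-low side. The table lists a gene from a log fold change of 0.25 (base not stated) and a p-value of at most 0.00999, from a model that treats cells as the units. The 18 protein-coding members on the MMP-high side were 17.3% of the annotated genes of these families, where 5.67% of all tested genes were listed on that side. On the MMP-low side the 2 members were 1.92% of the annotated genes, against 5.86% of all tested genes. For the ribosome alone these shares were 16.5% on the MMP-high side and 1.27% on the MMP-low side, and for import 20% and 4%. At an adjusted p below 0.05 the authors' deposited table held 12 members on the MMP-high side (11.5% of the annotated genes, against 3.69% of all tested genes) and 1 on the MMP-low side (0.962%, against 3.33%). Whether each annotated gene was among those tested is not stated.

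**Figure D1:**
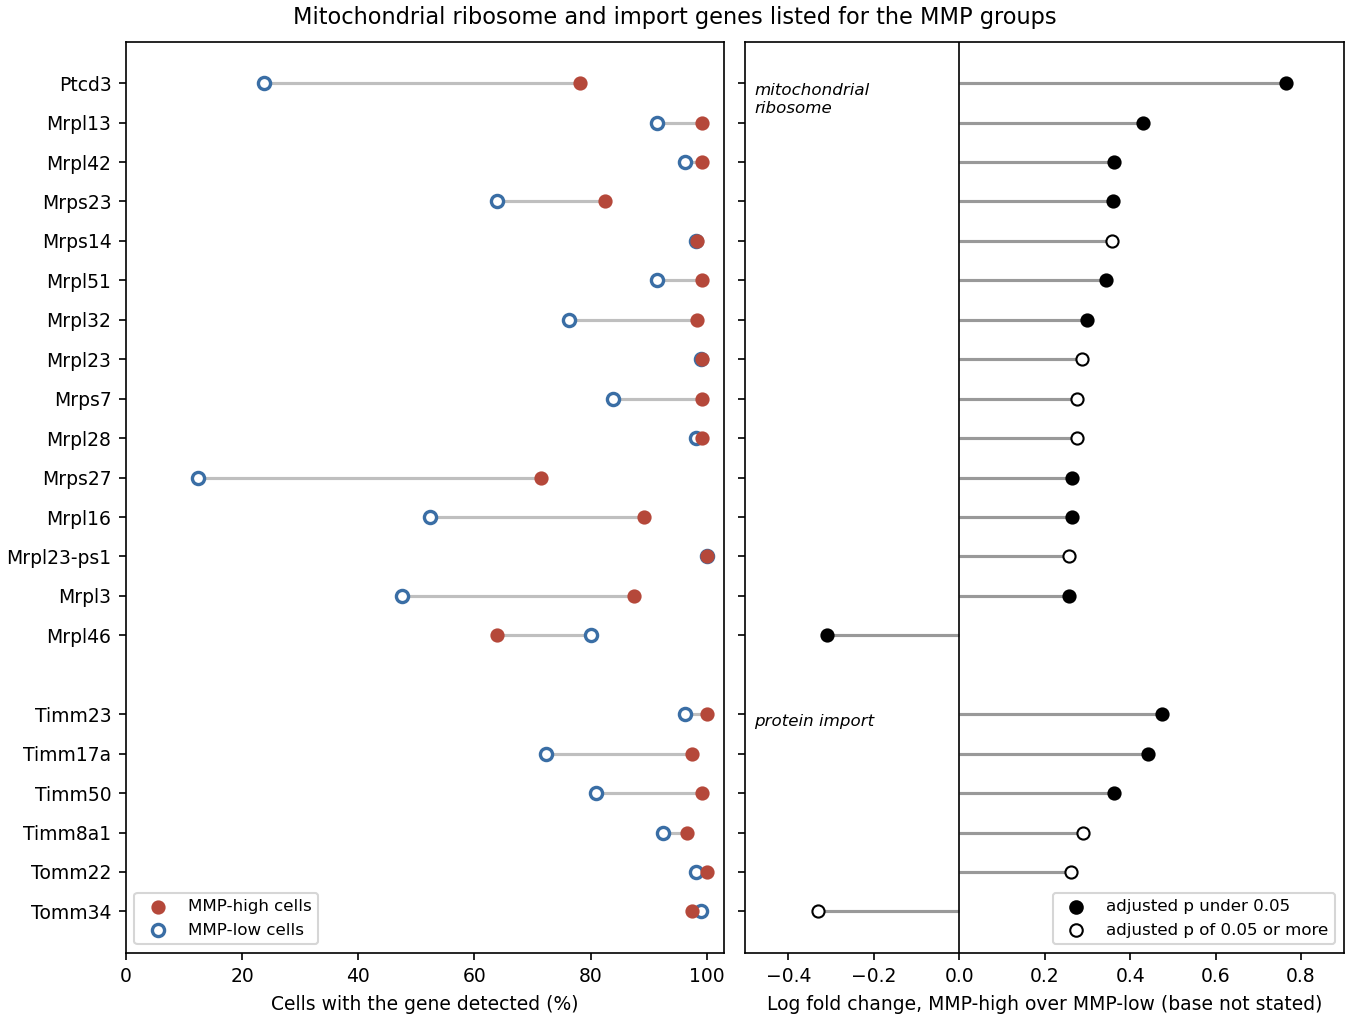
Left, the percent of MMP-high cells (filled) and MMP-low cells (open) in which each listed member was detected; right, its log fold change of MMP-high over MMP-low, both from the authors' deposited table with no replicates. Points to the right of 0 are higher in MMP-high; 12 of the 19 have an adjusted p under 0.05, and Mrpl46 and Tomm34 lie to the left of 0.

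Ptcd3 stood first among the ribosomal members by fold and Mrps27 by detection. Both encode pentatricopeptide repeat proteins of the small mitochondrial subunit, a type of protein that binds RNA. Ptcd3 (chromosome 6, 71880638 to 71908750, minus strand) was detected in 78.2% of MMP-high cells against 23.8% of MMP-low cells by the authors' deposited table, with a log fold change of 0.76 and an adjusted p of 5.11e-13. It ranked 4 by fold among the 919 genes on the MMP-high side of that table. Mrps27 (chromosome 13, 99344786 to 99415562, plus strand) was detected in 71.4% of MMP-high cells against 12.4% of MMP-low cells by the authors' deposited table (log fold change 0.27, adjusted p 8.34e-13). Its detection gap was 59 percentage points and its fold ranked 814 of 919, so that a wide gap in detection went with a fold near the lowest listed.

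Proteins of the large subunit with a similar pattern were Mrpl16 and Mrpl3. By the authors' deposited table, Mrpl16 was detected in 89.1% of MMP-high cells against 52.4% of MMP-low cells, with a log fold change of 0.26 and an adjusted p of 0.00016. Mrpl3 was detected in 87.4% of MMP-high cells against 47.6% of MMP-low cells by the authors' deposited table (log fold change 0.26, adjusted p 0.00038). Mrpl32, which is cut by a protease of the inner membrane before it joins the ribosome, was found in 98.3% of MMP-high cells against 76.2% of MMP-low cells by the authors' deposited table (log fold change 0.30, adjusted p 0.0026). These 3 and the 2 repeat proteins were the ribosomal members with a gap of at least 20 points.

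A further 4 ribosomal members had an adjusted p under 0.05 and smaller gaps. Mrps23, of the small subunit, was detected in 82.4% of MMP-high cells against 63.8% of MMP-low cells by the authors' deposited table, with a log fold change of 0.36 and an adjusted p of 0.0103. Mrpl13 and Mrpl51, both of the large subunit, had the same detection by the authors' deposited table, 99.2% of MMP-high cells against 91.4% of MMP-low cells, and log fold changes of 0.43 and 0.34. The adjusted p by the authors' deposited table was 0.0052 for Mrpl13 and 0.00996 for Mrpl51. Mrpl42 was in 99.2% of MMP-high cells against 96.2% of MMP-low cells by the authors' deposited table (log fold change 0.36, adjusted p 0.0179). For Mrpl13, Mrpl51 and Mrpl42, the difference in level thus stood beside detection above 90% in both groups.

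The other 5 ribosomal members on the MMP-high side missed the adjusted threshold. Mrps7, a protein of the head of the small subunit, was detected in 99.2% of MMP-high cells against 83.8% of MMP-low cells by the authors' deposited table (log fold change 0.28, adjusted p 0.215). Mrps14, Mrpl23 and Mrpl28 were detected in 98.1% to 99.2% of cells of either group by the authors' deposited table, with log fold changes of 0.36, 0.29 and 0.28 and an adjusted p of 1 each. Mrpl23-ps1, annotated as a processed pseudogene on chromosome 2 (74591330 to 74591909), was listed at 100% in both groups by the authors' deposited table, with a log fold change of 0.26 and an adjusted p of 1. Its reads may be shared with Mrpl23 on chromosome 7, so the values of both are uncertain.

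Mrpl46, a large-subunit protein, ran the other way. It was detected in 63.9% of MMP-high cells against 80% of MMP-low cells by the authors' deposited table, with a log fold change of -0.31 (MMP-high over MMP-low) and an adjusted p of 0.049. The gene (chromosome 7, 78775236 to 78783531, minus strand) overlaps Mrps11, the gene of a small-subunit protein on the other strand, by 413 bases in GENCODE. Their RefSeq starts lie 42 bases apart and the genes run away from each other, so by these starts they do not overlap. The library kit does not mark strand, so reads in the GENCODE overlap cannot be told apart. Mrps11 was in none of the 3 gene tables. Opposite-strand overlaps leave Mrpl13 (341 bases with Mtbp), Mrps7 (127 bases with Gga3, and Mif4gd) and Tomm34 (848 bases with Stk4) uncertain in the same way.

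Of the import genes, 5 of 6 listed members were on the MMP-high side. These were 20% of the annotated import genes, against 5.67% of all tested genes. The 1 on the MMP-low side was 4%, near the 5.86% of all tested genes. The 3 import genes with an adjusted p under 0.05 all belong to the TIM23 complex. Timm23, the channel-forming subunit that gives the complex its name (chromosome 14, 32180162 to 32201898), was detected in 100% of MMP-high cells against 96.2% of MMP-low cells by the authors' deposited table. Its log fold change was 0.48 with an adjusted p of 0.00069 by the authors' deposited table. Timm17a, which forms the translocase core with Timm23 (chromosome 1, 135295213 to 135313778), was detected in 97.5% of MMP-high cells against 72.4% of MMP-low cells by the authors' deposited table (log fold change 0.44, adjusted p 1.03e-05). Timm50, the receptor that takes over presequence proteins in the intermembrane space, was found in 99.2% of MMP-high cells against 81% of MMP-low cells by the authors' deposited table (log fold change 0.36, adjusted p 0.0084).

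The remaining import genes had an adjusted p of 1. Timm8a1, a chaperone of the intermembrane space, was detected in 96.6% of MMP-high cells against 92.4% of MMP-low cells by the authors' deposited table (log fold change 0.29). Tomm22, a receptor of the TOM complex, was detected in 100% of MMP-high cells against 98.1% of MMP-low cells by the authors' deposited table (log fold change 0.26). Tomm34, a cytosolic cochaperone that binds preproteins, was on the MMP-low side, at 97.5% of MMP-high cells against 99% of MMP-low cells by the authors' deposited table (log fold change -0.33). No other Tomm gene was listed for the MMP groups.

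Compared with all genes on the MMP-high side, the members had smaller gaps in detection between the groups. By the authors' deposited table, the median gap in detection was 7.8 points over the 19 members on that side, 11.6 over the 14 of the ribosome and 4.2 over the 5 of import, against 18.5 over all 919 genes. A gap of at least 20 points was seen for 6 of 19 members (31.6%) and for 446 of 919 genes (48.5%) by the authors' deposited table. The median log fold change was 0.30 for the members and 0.33 for all 919 genes by the authors' deposited table. Cytosolic ribosomal proteins lay still closer to full detection: 31 of 86 (36%) stood on the MMP-high side and 1 (1.16%) on the MMP-low side by the authors' deposited table. Their median gap was 0.0 points over the 32 listed on both sides, whereas the medians of the members cover the MMP-high side alone. Respiratory chain and ATP synthase subunits were listed for MMP-high in 15 of 99 cases (15.2%) and for MMP-low in 0 by the authors' deposited table, with a median gap of 1.0 points. Of all tested genes, 5.67% were listed on the MMP-high side and 5.86% on the MMP-low side. These shares describe the lists and were not tested against each other.

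**Figure D2:**
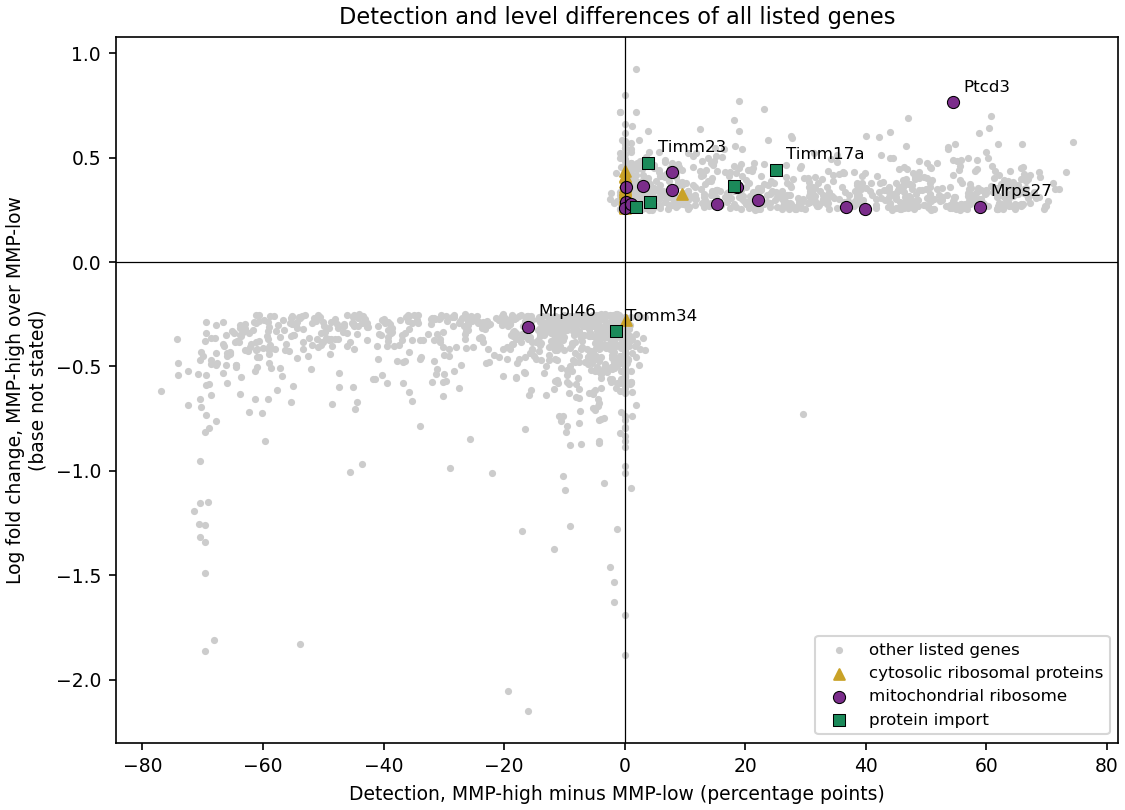
Each point is a gene of the authors' deposited table of the MMP groups, with the difference in detection (percentage points, MMP-high minus MMP-low) across and the log fold change upward. Members of the mitochondrial ribosome (circles) spread from 0.0 to 59 points on the MMP-high side, while cytosolic ribosomal proteins (triangles) lie near 0.

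Assembly and translation factors outside the Mrpl and Mrps symbols were listed about as often as genes in general. Of 42 such symbols, 2 (4.76%) stood on the MMP-high side and 3 (7.14%) on the MMP-low side by the authors' deposited table, near the 5.67% and 5.86% of all tested genes. Some of the 42 are older names of the same gene, and Ict1 is an older name of the member Mrpl58, so these are shares of symbols. Fastkd2, an RNA-binding protein needed to assemble the large subunit, was detected in 25.2% of MMP-high cells against 83.8% of MMP-low cells by the authors' deposited table, with a log fold change of -0.51 and an adjusted p of 2.29e-15. Aurkaip1, a protein of the small subunit known under another name, was in 98.3% of MMP-high cells against 83.8% of MMP-low cells by the authors' deposited table (log fold change 0.40, adjusted p 0.00021). Gfm1, the elongation factor that moves the ribosome along the message, had a log fold change of -0.47 by the authors' deposited table, and C1qbp, a matrix protein that binds RNA, had 0.37, each with an adjusted p of 1.

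Mitochondrial aminoacyl-tRNA synthetases, which load amino acids onto tRNA, were listed in 5 of 19 cases, 4 on the MMP-high side (21.1%) and 1 on the MMP-low side (5.26%). Of all tested genes, 5.67% and 5.86% were listed on these sides, so the MMP-low share was near that of genes in general. Tars2 was detected in 78.2% of MMP-high cells against 34.3% of MMP-low cells by the authors' deposited table, Nars2 in 70.6% and 20.0%, and Vars2 in 58% and 14.3%. Each of these 3 had an adjusted p under 0.05 by the authors' deposited table. Mars2, which loads methionine, was on the MMP-low side at 41.2% of MMP-high cells against 68.6% of MMP-low cells by the authors' deposited table (log fold change -0.60, adjusted p 1.64e-05).

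Of 29 symbols of further import steps, among them the member Tomm70a, 4 (13.8%) stood on the MMP-high side and 0 on the MMP-low side by the authors' deposited table. Of all tested genes, 5.67% and 5.86% were listed on these sides. Pmpca, a subunit of the peptidase that removes presequences in the matrix, was detected in 82.4% of MMP-high cells against 37.1% of MMP-low cells by the authors' deposited table (log fold change 0.35, adjusted p 5.18e-07). Grpel1, the nucleotide exchange factor of the import motor, was in 100% of MMP-high cells against 86.7% of MMP-low cells by the authors' deposited table (log fold change 0.38, adjusted p 0.0025). Hsp90aa1 and Hspa8, cytosolic chaperones that also serve many other proteins, were at 100% in both groups of the authors' deposited table, with log fold changes of 0.36 and 0.33 and adjusted p values of 0.0013 and 0.069. Among 15 matrix and inner membrane chaperones and proteases, Phb2 and Clpp (13.3%) were listed as higher in MMP-high with an adjusted p of 1 by the authors' deposited table. Of 14 symbols of mitochondrial DNA replication and transcription, Twnk and Peo1 being names of 1 gene, the authors' deposited table listed 1 (7.14%). This was Ssbp1, a protein that coats single-stranded mitochondrial DNA, at a log fold change of 0.31 and an adjusted p of 1.

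Clusters A to E are groups of cells that the authors defined from the same expression data, so a gene that stands out in a cluster is a description of it and no test. The authors' deposited table of clusters lists 20 members, 15 of the ribosome and 5 of import, and gives 3 of them for a pair of clusters. Of all tested genes, 5.27% were listed for cluster A, 4.16% for B, 5.12% for C, 3.23% for D and 2.8% for E. Members were listed for these clusters in 1.92%, 2.88%, 6.73%, 5.77% and 4.81% of the annotated genes, in the same order. Genes listed for A and B were otherwise often on the MMP-low side, with 65.1% of the 854 genes of A and 60.4% of the 674 of B, and 0 of either on the MMP-high side. Of the 830 genes listed for C, 14.6% were on the MMP-high side and 7.23% on the MMP-low side of the MMP table. Of those listed for D and E, 53.2% and 49.1% were on the MMP-high side. The MMP groups and the clusters hold the same cells, so these values do not check each other.

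Clusters A and B had ribosomal members and no import gene. The ribosomal members were 2.53% of the annotated ribosomal genes for A and 3.8% for B. Of all tested genes, 5.27% and 4.16% were listed for these clusters. Whether the absence of the 25 annotated import genes differs from these shares was not tested. Mrpl46 was listed for both, detected in 100% of the cells of A and 64.2% of all other cells (log fold change 0.33, adjusted p 4.2e-06) and in 96.4% of the cells of B and 67.9% of all other cells (0.39, adjusted p 0.135) by the authors' deposited table. Mrps2, a small-subunit protein, was detected in 97.8% of the cells of A and 59.2% of the others by the authors' deposited table (log fold change 0.28, adjusted p 7.67e-05). Mrpl39 and Mrpl22, both of the large subunit, were detected in 96.4% of the cells of B each, against 79.6% and 82.1% of the others by the authors' deposited table, with an adjusted p of 1.

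Cluster C had the most members by count, 5 of the ribosome and 2 of import. These were 6.73% of the annotated genes, against 5.12% of all tested genes listed for C. For D these shares were 5.77% against 3.23%, and for E 4.81% against 2.8%. Mrpl58, a peptidyl-tRNA hydrolase built into the large subunit that rescues stalled ribosomes, was detected in 91.2% of the cells of C and 42.9% of the others by the authors' deposited table (log fold change 0.33, adjusted p 2.45e-10). Timm29, a subunit of the TIM22 carrier translocase, was in 94.1% of the cells of C and 71.2% of the others by the authors' deposited table (log fold change 0.30, adjusted p 0.00085). Timm29 overlaps Yipf2 on the other strand.

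Mrps5 and Mrps7, both of the small subunit, were detected in 97.1% and 100% of the cells of C, against 80.8% and 88.5% of the others, with adjusted p values of 0.0054 and 0.0017 by the authors' deposited table. Mrps17, also of the small subunit, had a log fold change of 0.35 for C (adjusted p 0.032) although it was detected in fewer of its cells, 94.1% against 100% of the others by the authors' deposited table. Timm50 (97.1% of the cells of C and 87.8% of the others) and Mrpl4 (100% and 98.7%) had an adjusted p of 1 by the authors' deposited table. Mrps7 and Timm50 were the members of C that the MMP table also lists, both as higher in MMP-high.

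**Figure D3:**
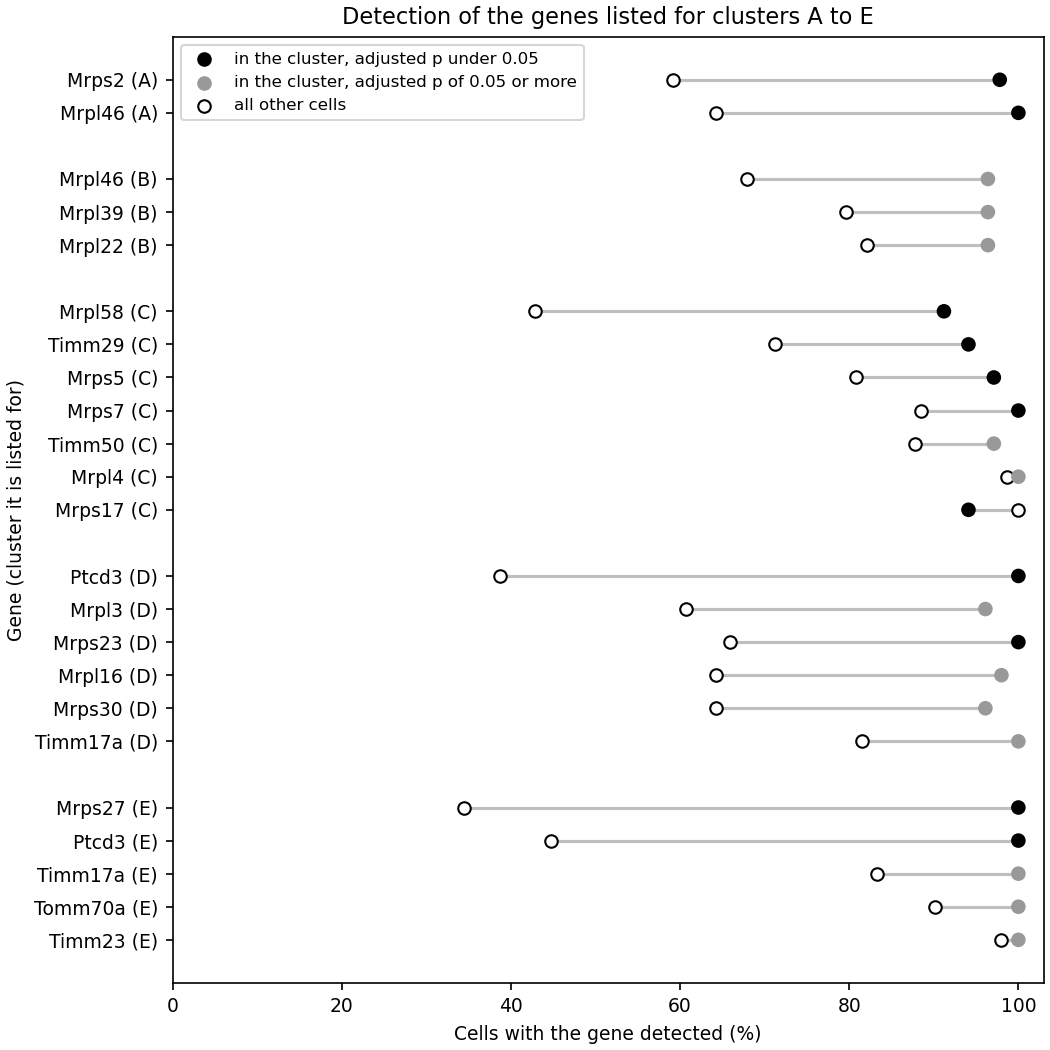
The percent of cells of the named cluster (filled, black where the adjusted p is under 0.05 and grey otherwise) and of all other cells (open) in which a member was detected, for every member of the authors' deposited table of clusters. Ptcd3 and Mrps27 show the widest gaps, in D and E, and Mrps17 alone is detected in fewer cells of its cluster.

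Of the 5 ribosomal members with a gap of at least 20 points between the MMP groups, Ptcd3, Mrpl16 and Mrpl3 were listed for D and Ptcd3 and Mrps27 for E, while Mrpl32 was listed for no cluster. Ptcd3 was detected in 100% of the cells of D and 38.7% of the others (log fold change 0.43, adjusted p 2.21e-09), and in 100% of the cells of E and 44.8% of the others (0.65, adjusted p 0.00073) by the authors' deposited table. Mrps27 was detected in 100% of the cells of E and 34.4% of the others by the authors' deposited table (log fold change 0.32, adjusted p 8.33e-06). Mrps23 was detected in 100% of the cells of D and 65.9% of the others by the authors' deposited table (log fold change 0.45, adjusted p 0.0023). Mrpl16, Mrpl3 and Mrps30 were in 96.1% to 98% of the cells of D and in 60.7% to 64.2% of the others, and did not reach an adjusted p of 0.05 by the authors' deposited table. Mrps30, despite its name a protein of the large subunit, was not listed for the MMP groups, and overlaps B430218F22Rik on the other strand by 623 bases.

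Import genes of D and E had an adjusted p of 1 throughout. Timm17a was detected in 100% of the cells of D and of E, against 81.5% and 83.3% of the other cells by the authors' deposited table. Timm23 was detected in 100% of the cells of E and 97.9% of the others by the authors' deposited table. Tomm70a, an outer membrane receptor for carrier proteins, was detected in 100% of the cells of E and 90.1% of the others by the authors' deposited table, and overlaps Nit2 by 41 bases. Of the members listed for D, 5 of 6 were on the MMP-high side of the MMP table, as were 4 of 5 of those for E. Of all 524 genes listed for D, 53.2% were on that side, and of all 454 listed for E, 49.1%. Whether the members differ from these shares was not tested.

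Few members were among the highly variable genes. The authors' deposited list of these held 34.7% of the number of genes tested and 12 members, 11.5% of the annotated genes. Mrpl9, Mrpl10, Mrpl19, Mrps9, Mrps22 and Mrps31 of the ribosome, and Timm44, which anchors the import motor, and Tomm40, the pore of the outer membrane, were named there and in no other table, which gives them no level. Mrps2, Mrps27, Ptcd3 and Tomm34 were the others. The authors' deposited list of genes shared by MMP-high cells and the cells it calls aHSC held 1 member, Timm50, among 55 genes, and that shared by MMP-low cells and those it calls dHSC held 0 of 99. For comparison, 19 of all 919 genes on the MMP-high side and 2 of all 949 on the MMP-low side were members. Whether the shared lists differ from these shares was not tested.

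In the authors' deposited table of gene ontology terms for the MMP-high genes, 16 members stood in the term mitochondrial inner membrane, 13 of the ribosome and 3 of import, among 45 genes (adjusted p 4.28e-09). The term translation held 8 members among 42 genes by the authors' deposited table (adjusted p 1.99e-18). Members were chosen by the names of these families, so their place in such terms was given in advance. The adjusted p values are those of all MMP-high genes and are no test of the members. Counted over target sets of transcription factors on the MMP-high side, members were most often in the sets of TAF1, a subunit of the general factor TFIID, and YY1, a zinc finger factor that binds near many start sites. The authors' deposited table put 14 of the 18 protein-coding members (77.8%) in the TAF1 set and 13 (72.2%) in the YY1 set, against 40.2% and 32.2% of all 863 protein-coding genes on that side. The set of GABPA, an ETS family factor also known as nuclear respiratory factor 2, held 8 members (44.4%, against 20.3% of the 863) by the authors' deposited table. The set of NRF1, the other nuclear respiratory factor, held 2 members (11.1%, against 18.5%), and the ENCODE set of MYC held 5 (27.8%, against 25%) by the authors' deposited table.

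**Figure D4:**
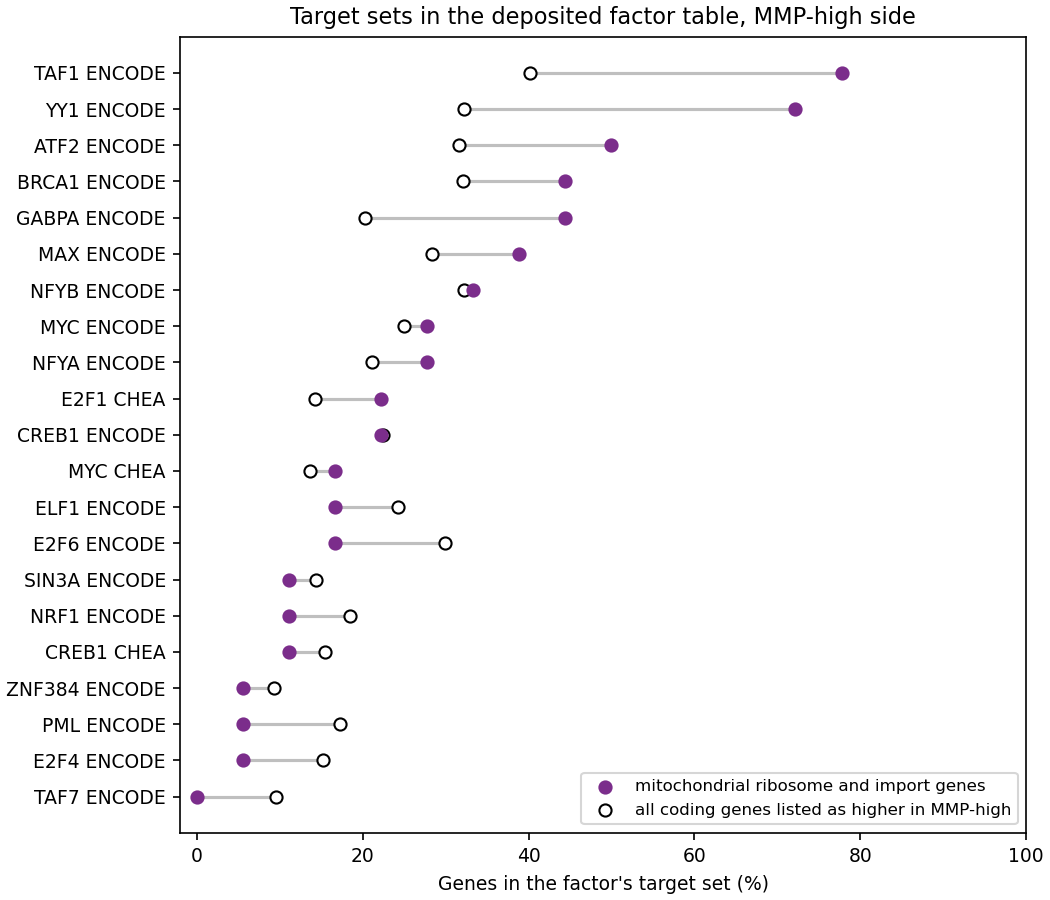
The percent of protein-coding members (filled, of 18) and of all protein-coding genes listed as higher in MMP-high (open, of 863) in each of 21 target sets of the authors' deposited table. The sets of TAF1 (77.8% against 40.2%), YY1 (72.2% against 32.2%) and GABPA (44.4% against 20.3%) have the widest distances.

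The letters that these factors are known to prefer were looked up in RefSeq promoters (build GRCm38.p6, 250 bases before to 50 after the start), of which 35 of the 39 members had an entry. Mrpl4, Mrpl13, Mrpl19 and Mrpl23-ps1 had none. On either strand, AAGATGGC, the core of YY1 motifs, was in the promoters of 6 of 17 members on the MMP-high side (35.3%), in 15.2% of 92 annotated genes of these families and in 3.64% of 16522 protein-coding genes. CCGGAAG, the core of ETS motifs, was in 6 of the 17 (35.3%), in 38% of the 92 and in 13.4% of all protein-coding genes. GCGCATGC, the core of NRF1 motifs, was in 5.88%, 9.78% and 4.11% in the same order, and CACGTG, an E-box, in 5.88%, 10.9% and 9.18%. These letters were not set against any binding in HSCs.

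All 6 members with the YY1 letters were also among the 13 of the 17 in the authors' deposited YY1 set, and 0 of the 4 outside it had them. In 5 of the 6 the letters begin 12 to 28 bases after the start and read in the direction of the gene, and in Mrpl32 they begin 242 bases before it on the other strand. The YY1 letters contain ATG, the letters of a start codon. Whether the matches overlap the start of translation, which would also set their position and direction, was not tested. The stretches of 30 bases are shown to compare these positions, with the YY1 letters in capitals, in gene direction.
Ptcd3 (chr6:71908725-71908754, minus strand): cgaagagtccaAAGATGGCggcggcggcgg
Mrps27 (chr13:99344789-99344818, plus strand): tggtgcgctccAAGATGGCggctcccatgg
Mrps7 (chr11:115604147-115604176, plus strand): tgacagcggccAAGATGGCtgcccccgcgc
Mrpl42 (chr10:95501904-95501933, minus strand): cagattgaagcAAGATGGCgagcgcgcggt
Timm50 (chr7:28312017-28312046, minus strand): ggcgtcagcgcAAGATGGCggcctcggcgg
Mrpl32 (chr13:14613258-14613287, minus strand): cgcgctctGCCATCTTtacccggaaagtcg

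Of the 7 members with a promoter in the GABPA set of the authors' deposited table, 4 had the ETS letters (Mrpl3, Mrpl51, Mrps23 and Tomm22), as did 2 of the 10 outside it (Mrps27 and Timm23). Of the 2 in the NRF1 set, Mrpl32 had the NRF1 letters and Ptcd3 did not. The 150 bases before the start are shown for 4 members to compare these positions, with the ETS or NRF1 letters in capitals. Tomm22 has the ETS letters on both strands, overlapping, from 47 bases before the start, Timm23 and Mrps27 have them from 47 and 48 bases before it, and Mrpl32 has the NRF1 letters at 4 positions, of which a pair overlap. Of the members on the MMP-low side, the promoter of Mrpl46 held none of the letters searched, and Tomm34 had the ETS letters in both of its RefSeq entries.
Tomm22 (chr15:79670718-79670867, plus strand): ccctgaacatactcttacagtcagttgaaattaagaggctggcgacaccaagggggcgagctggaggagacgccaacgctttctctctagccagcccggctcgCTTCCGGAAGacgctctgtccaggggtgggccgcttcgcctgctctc
Timm23 (chr14:32201892-32202041, minus strand): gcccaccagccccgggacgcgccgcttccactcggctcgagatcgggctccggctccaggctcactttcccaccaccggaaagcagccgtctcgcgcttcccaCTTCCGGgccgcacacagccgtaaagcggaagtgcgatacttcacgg
Mrps27 (chr13:99344636-99344785, plus strand): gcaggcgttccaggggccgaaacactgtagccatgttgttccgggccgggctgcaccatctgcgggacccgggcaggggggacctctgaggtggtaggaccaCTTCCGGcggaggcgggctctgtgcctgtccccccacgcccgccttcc
Mrpl32 (chr13:14613038-14613187, minus strand): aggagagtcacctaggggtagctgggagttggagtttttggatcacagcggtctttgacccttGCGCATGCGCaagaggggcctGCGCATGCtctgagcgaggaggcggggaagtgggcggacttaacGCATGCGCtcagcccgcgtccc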

How the data were processed

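Single HSCs were captured on a Fluidigm C1 chip and made into libraries with SMART-Seq v4 and Nextera XT, which carry no molecular identifiers, per the labels' protocols. The tools bcl2fastq 2.17.1.14 and STAR 2.5.2b and the build mm10 come from the submitters' processing notes. No annotation or normalization is named in these sources. Counts of reads and of genes detected per library, and fractions of reads, were deposited by the authors in a quality table. The authors' deposited gene tables give a log fold change (kept as a score, since its base is not stated), the share of cells with the gene detected, and a p-value with its adjusted value, which equals the p-value times 16203, taken as the genes tested. The MMP table mentions MAST, per the file headers. Signs were turned so that positive means higher in MMP-high.

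Titles gave each library its group. Each group was 1 sample, so no test was run, and n, the authors' cell numbers per group and cluster, is not given in the tables. Depth per library ran from 949570 to 4308287 total reads for MMP-high cells and 678723 to 5074155 for MMP-low cells. All members in the MMP or cluster table are named, and up to 4 genes of each other list by fold; of the ribosome factors Gatc and of the synthetases Cars2, both with an adjusted p of 1, fall outside the values given. Members and lists were chosen with earlier results of these data known. Counts were repeated with an adjusted p under 0.05, with a minimum log fold change of 0.4, and without Ptcd3, and the counting was tested on simulated tables. Python 3.11.15 and pandas 2.3.3 were used. Positions of genes come from GENCODE M21 and promoters from RefSeq; Mrpl13, Mrpl4, Mrpl19 and Mrpl23-ps1 had no promoter entry.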

Additional observations from a re-analysis of the deposited data

How the results depend on the processing

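All counts rest on the authors' thresholds and on cells of 1 sample per group. With an adjusted p under 0.05, members listed as higher in MMP-high number 9 of the ribosome and 3 of import. The cluster table then holds 10 ribosomal and 1 import entries, against 17 and 6 as listed. Median detection differences (MMP-high minus MMP-low) were also taken over listed members of both sides. They become 20.35 points for the ribosome and 18.2 for import, against 7.8 and 4.0 with Mrpl46 and Tomm34 included. Over the MMP-high side alone, as given above, the medians were 11.6 and 4.2. With a log fold change of at least 0.4, 2 members of the ribosome and 2 of import remain on the MMP-high side, and the cluster table holds 3 entries of the ribosome and 1 of import. As means over listed members of both sides, the detection differences are 16.67 and 8.62 points. Without the pseudogene Mrpl23-ps1, an alternative chosen after seeing the data, the ribosomal median over both sides is 11.6. Without Ptcd3 the ribosomal counts were 13 members in MMP-high, against 14, and 15 entries in the cluster table, against 17. The median difference in genes detected per library, 1479, was 1580 in libraries numbered up to 85, 1164 as a mean and -178 above 85, where its sign turned; the cause was not tested. No paired analysis was possible because the numbers in the titles only count cells and the results come from no test.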

Other observations

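Detection of listed genes, members or not, stood far above the share of genes detected per library. Listed genes were selected by fold and p-value from all tested genes, so these shares do not cover the same genes. How much this selection adds to the gap was not tested. In the authors' deposited table, the median listed member was detected in 98.3% of MMP-high cells against 91.4% of MMP-low cells, and the median of all 1868 listed genes was 87.4% of MMP-high cells against 81.9% of MMP-low cells. Detection in at least 95% of the cells of both groups was seen for 7 of the 19 members on the MMP-high side (36.8%), near the 285 of all 919 genes on that side (31%). The median library of the quality table held 23.4% of the 16203 tested genes in MMP-high and 14.3% in MMP-low. The rule by which either source calls a gene detected is not stated, nor which libraries entered the gene tables.

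Mrpl9, Mrpl10, Mrpl22 and Mrpl39 hold the NRF1 letters within 150 bases before the start, as Mrpl32 does, and Mrpl58, listed for cluster C, holds the ETS letters 17 bases before it. Across the annotated genes with a promoter, the ETS letters were in 37.1% of 70 ribosomal and 40.9% of 22 import genes, and the YY1 letters in 18.6% and 4.55%.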
